A study of Mus musculus with 12 samples.

Results

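Replication-dependent histone genes encode the bulk histones that package newly made DNA. The genes described here are the protein-coding genes whose mouse name in the GENCODE M1 annotation starts with Hist1h, Hist2h, Hist3h or Hist4h, and they were chosen by name alone. Of the 67 such genes in M1, 64 had exon values, on 67 transcripts, among 34079 M1 genes with exon values on 83847 transcripts. By type, 6 genes encode the linker histone H1, 19 encode H2A, 18 encode H2B on 21 transcripts, 9 encode H3 and 12 encode H4. No value was analysed here for Hist4h4, Hist1h3h and Hist1h3i, so no Hist4h gene was measured. The names also take in Hist1h1t, Hist1h2aa and Hist1h2ba, which are known as testis histones.

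Mouse embryonic stem cells (mESCs) of the line DTCM23/49 XY were given 200 µM 4-thiouridine (4sU) for 15, 30 or 60 min. 4sU is a uridine analog that is built into RNA while it is made, so that new RNA can be biotinylated and captured on streptavidin beads. The captured RNA (labeled RNA) and the RNA before capture (total RNA) were sequenced at each time with 2 replicates, giving 6 labeled and 6 total libraries. Cells of all libraries received 4sU, the total RNA included, and no library of untreated cells was analysed here. Both replicates came from 1 culture of 1 line that was divided and passaged. The p-values measure the spread between these libraries, in which culture, capture and library preparation cannot be told apart. The main fit takes the 12 libraries as separate and does not pair them. Each value is read as an abundance per length of exon. Exons and introns of a library sum to nearly the same total (from 19988830 to 19992902), and this scaling was inferred from the values. Comparing abundances between genes rests on this reading and, for short transcripts that share reads, on how reads were assigned. The depth of each library is unknown from these values. All 8 markers of mESCs had exon values, with summed abundances from 17531 to 30120, against 73.4 to 260 for 10 markers of fibroblasts and differentiated cells, of which Cdx2 had no value in any of the 12.

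Replication-dependent histone mRNAs are made mainly in S phase, when DNA is copied, and are destroyed when replication ends. Unlike other mRNAs of animals, they usually carry no poly(A) tail and no introns. Their 3′ end is a short RNA hairpin, bound by the stem-loop binding protein Slbp, and is cut by a complex that holds the U7 small nuclear RNA. mESCs divide rapidly and spend a large share of the cycle in S phase.

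The hairpin was present in the transcript sequences of most of the genes, and the forms found are shown because they are the feature that sets these mRNAs apart. A stem of 6 bases that starts with GG, a loop of 4 bases that starts with TT and the exact reverse complement of the stem were searched after the stop codon, on the transcript strand. Of 57 transcripts with at least 16 bases after the stop codon, 42 (73.7%) held this hairpin, against 0.269% of 43045 M1 protein-coding transcripts. Absence of a match says only that these letters were not in the annotated transcript. The sites below are M1 transcript sequences, written 5′ to 3′ with T for U, with the hairpin in capitals and 5 bases on each side.
Hist1h1e (H1): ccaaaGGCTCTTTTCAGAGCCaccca
Hist1h3b (H3): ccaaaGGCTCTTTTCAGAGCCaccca
Hist2h2ac (H2A): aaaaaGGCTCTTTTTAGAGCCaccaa
Hist1h4d (H4): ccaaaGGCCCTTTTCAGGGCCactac
Hist1h4b (H4): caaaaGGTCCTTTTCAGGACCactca
Hist1h4i (H4): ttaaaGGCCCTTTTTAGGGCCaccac
The first form, shared by Hist1h1e and Hist1h3b, was found in 27 transcripts of H1, H2A, H2B and H3. The form of Hist1h4d was found in 6 transcripts, all of H4, and those of Hist1h4b and Hist1h4i in 2 each, also of H4. A form with the loop TTTA and the stem of the first was found in 4 transcripts of H1 and H3, and that of Hist2h2ac in 1. The 10 H4 hairpins thus carried stems other than those of the 32 hairpins of the other types. The hairpin lay 21 to 58 bases after the stop codon, with a median of 31, and 17 transcripts of 16 genes ran on for at least 100 bases past it.

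Promoters also differed by type, which is why 4 are shown. They are the 100 bases before the annotated start in RefSeq (GRCm38.p6), 5′ to 3′ on the gene's strand, with CCAAT or its reverse complement ATTGG, and TATAAA, in capitals.
Hist1h1b, chr13:21780626-21780725, minus strand: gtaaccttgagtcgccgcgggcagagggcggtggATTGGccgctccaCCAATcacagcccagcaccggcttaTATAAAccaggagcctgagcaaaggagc
Hist1h3b, chr13:23752245-23752344, plus strand: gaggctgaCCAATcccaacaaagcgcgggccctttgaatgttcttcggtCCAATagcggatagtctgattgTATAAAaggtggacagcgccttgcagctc
Hist1h4d, chr13:23581468-23581567, plus strand: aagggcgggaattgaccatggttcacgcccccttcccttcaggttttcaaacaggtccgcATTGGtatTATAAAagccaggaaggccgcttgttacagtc
Hist1h4k, chr13:21750554-21750653, minus strand: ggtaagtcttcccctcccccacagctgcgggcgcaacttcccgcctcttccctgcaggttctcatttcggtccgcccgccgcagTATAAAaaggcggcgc
Over the 250 bases before the start and on both strands, CCAAT was found in 84.2% of 57 matched histone promoters, against 34.5% of 27025 promoters. It was found in all promoters of H1, H2A and H2B and in 6 of 7 of H3, but in 3 of 11 of H4. TATAAA was found in 47.4% of the histone promoters and 13.0% of all promoters. Such matches describe the sequence and are not shown to be sites.

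In GRCm38, 51 of the matched Hist1h genes lay on chromosome 13 between 21715711 and 23934913. Hist1h2al lay apart on the same chromosome from 51200084 to 51203066. It is protein-coding in M1, but its position is that of the RefSeq entry H2af-ps2, a pseudogene symbol matched by name. The 9 Hist2h genes lay on chromosome 3 from 96219885 to 96270192 and the 2 Hist3h genes on chromosome 11 from 58948911 to 58955192. Of the transcripts, 63 of 60 genes had a mean abundance of at least 20 over the 12 libraries and were tested. Hist1h1t, Hist1h2aa, Hist2h2bb and Hist3h2ba were below it, with means from 7.11 to 11.6. The tested transcripts were short, with a median of 531 nucleotides and 97 uridines, against 2127 and 511 for 20629 tested protein-coding transcripts. Among them 56 of 63 had a single exon, as did 474 of the protein-coding transcripts. Reads of 100 nucleotides cannot always be given to 1 gene of such a family. The median share of 100-base windows of the coding sequence found in no other M1 protein-coding gene was 95.1% for H1, 18.0% for H2A, 47.9% for H2B, 43.6% for H3 and 39.2% for H4. It was 0 for 7 H2A, 3 H2B and 2 H4 transcripts, so that values of single core histone genes are uncertain and sums over a type are more secure. Transcripts of such names that M1 does not class as protein-coding are left out of the sums and may take reads of these genes. They are Hist3h2bb-ps, with means of 1311 in total and 978 in labeled RNA, Hist1h2aj (743 and 663) and Hist2h3c2 (121 and 163).

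H2B transcripts had the highest abundances. Hist1h2bl was highest, with a mean of 3148 over the 12 libraries, followed by Hist1h2bn at 3125 and Hist1h2bf at 2905. The median of the transcript means was 992 for H2B, 620 for H4, 539 for H2A, 294 for H3 and 151 for H1. H2B made up a median of 61.4% of the summed histone abundance in total RNA and 54.3% in labeled RNA. Such shares also rest on how reads of short transcripts were assigned. H1, of which a nucleosome needs fewer copies than of a core histone, made up 1.79% and 2.42%. H3 made up 3.80% to 5.96% in total RNA (median 4.49%) and 5.70% to 16.1% in labeled RNA (median 7.31%).

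Histone abundances varied together from library to library, and by more than those of most transcripts, also between replicates of 1 group. Summed over all 67 transcripts, abundance in total RNA was 40403 and 80057 in replicates 1 and 2 at 15 min, 21787 and 43519 at 30 min, and 87117 and 28587 at 60 min. In labeled RNA it was 40522 and 47562 at 15 min, 34440 and 31259 at 30 min, and 17160 and 86231 at 60 min. The highest and the lowest labeled library were thus the replicates of the same time, 60 min. Of all exon abundance, histones held 0.0997% to 0.464% in labeled and 0.118% to 0.470% in total RNA. Replicates 2 at 15 min and 1 at 60 min were the highest total libraries for 62 of 63 tested histone transcripts, an order found for 10.9% of all tested transcripts. Replicate 2 at 60 min was the highest labeled library for 61 of them, against 13.2% of all, and replicate 1 at 60 min the lowest for 54, against 12.6%. The exceptions to the lowest place were all 9 H3 transcripts.

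**Figure D1:**
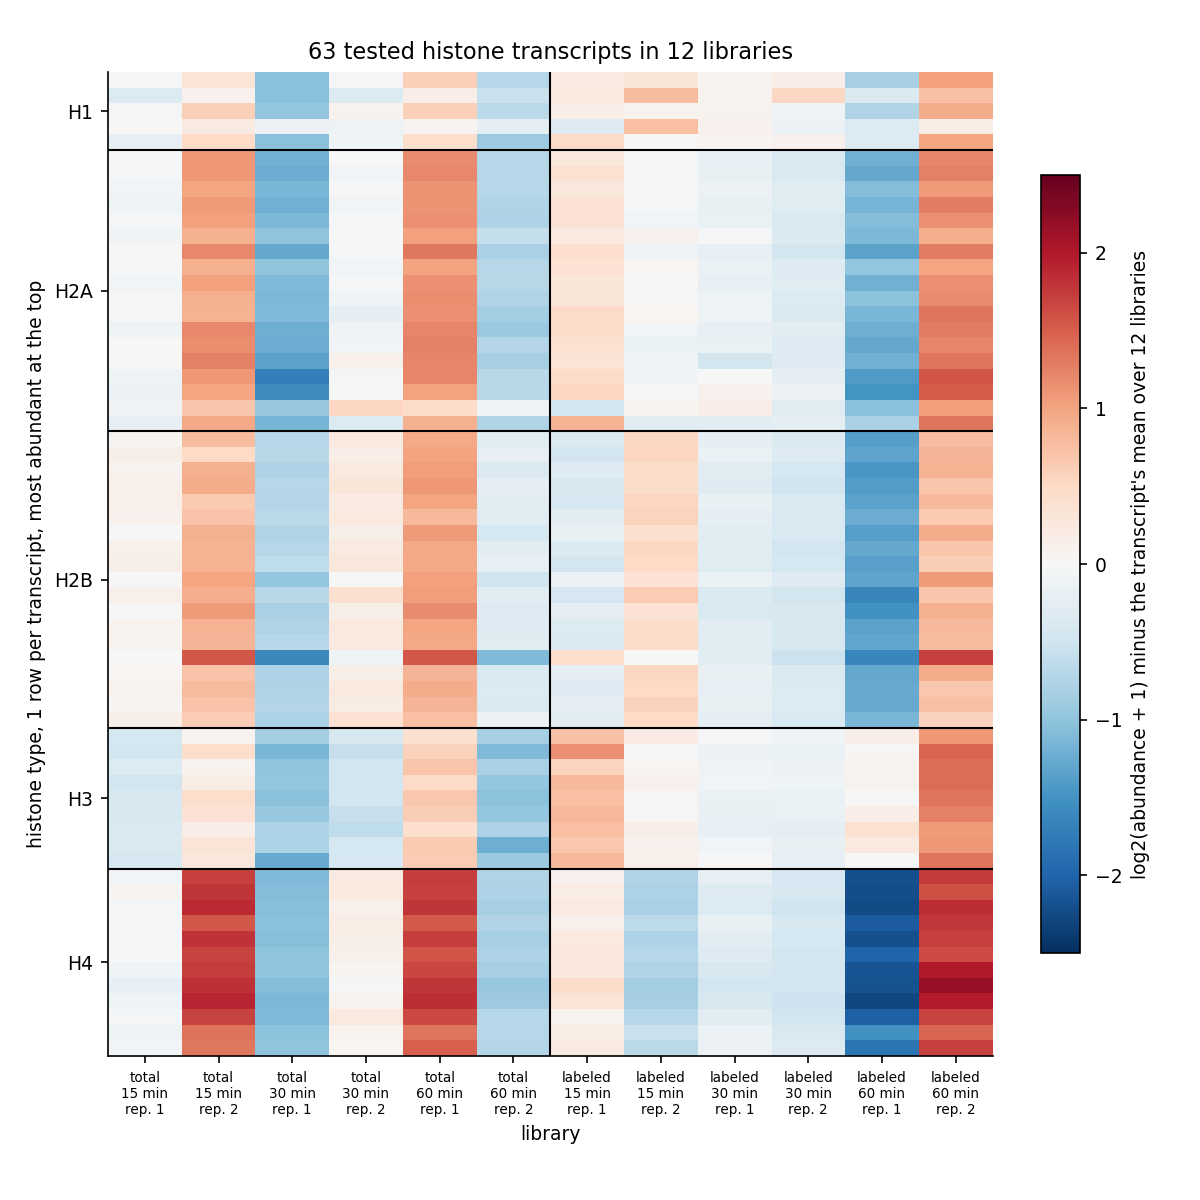
Abundance of the 63 tested histone transcripts (rows, by type) in the 6 total and 6 labeled libraries (columns), as log2(abundance + 1) minus each transcript's mean, red where higher and blue where lower. Transcripts of a type share their colors within a library, and replicates of the same time and fraction differ, most clearly in H4 and at 60 min.

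The standard deviation within replicate pairs had a median of 0.89 on the log2 scale for the histone transcripts, against 0.36 for all tested transcripts. It was 0.66 for H1, 1.00 for H2A, 0.83 for H2B, 0.65 for H3 and 1.50 for H4. At 60 min, labeled and total libraries of the same replicate number moved to opposite sides of their group means for 63 of 63 histone transcripts, against 70.0% of all tested transcripts. At 15 and 30 min this held for 41 and 55 of 63, against 64.0% and 46.9%. Whether any library carries the label of another was not tested, and the values at 60 min and those that pair libraries by number rest on the labels as given. The share of introns in the whole library was 6.53% to 7.41% in total RNA. In labeled RNA it was 14.8%, 9.35%, 10.8% and 13.9% in the libraries other than replicate 2 at 15 min and replicate 2 at 60 min, which had 7.24% and 6.99%. These labeled libraries therefore had an intron share within the range of total RNA, and results were also computed without them.

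GC content moved with this spread in some libraries. The tested histone transcripts had a median GC content of 59.1%, against 49.5% for protein-coding transcripts. In replicate 2 of labeled RNA at 60 min, 1374 other protein-coding transcripts with at least 58% GC lay 0.31 log2 above 6117 with less than 46%, and histone transcripts had a median deviation of 1.15. In replicate 1 of labeled RNA at 60 min the high-GC transcripts lay 0.32 below the low-GC transcripts, and histone transcripts deviated by -1.27. In total RNA the GC difference and the histone deviation were 0.23 and 0.89 in replicate 2 at 15 min. They were -0.32 and -1.01 in replicate 1 at 30 min, and 0.07 and 1.03 in replicate 1 at 60 min. In the remaining libraries the GC difference lay between -0.05 and 0.10 and the histone deviation between -0.72 and 0.25. Signs were opposite in some of these, as in replicate 1 of labeled RNA at 30 min (0.10 and -0.19). The part of GC content in the spread was not tested. Other short transcripts (under 600 nucleotides, n = 1975) had medians between 83.7 and 97.5 in the 12 libraries, and other single-exon transcripts (n = 418) between 232 and 355.

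**Figure D2:**
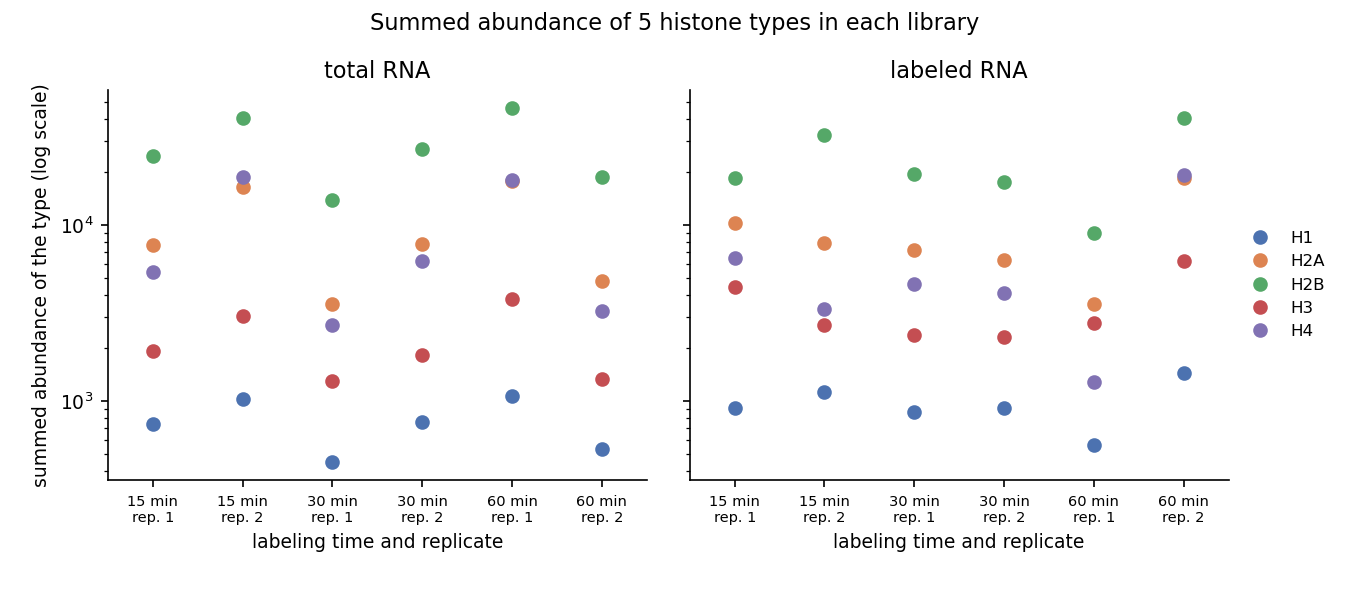
Summed abundance of the H1, H2A, H2B, H3 and H4 transcripts (log axis) in each total and labeled library. H4 spans the widest range, from 1287 to 19337 in labeled RNA, and H2B is the highest type in all 12 libraries.

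Labeled RNA was compared with total RNA over all labeling times to ask which histone RNAs held a larger share among new RNA. H3 and H1 transcripts had higher, and H2B and H4 transcripts lower, estimates in labeled RNA, but no single histone transcript passed the test. With limma on log2(abundance + 1), labeling time as a covariate and Benjamini-Hochberg adjustment, 0 of 63 tested histone transcripts had an adjusted p under 0.05, against 17.3% of 45537 transcripts tested. At an unadjusted p under 0.05 there were 8, against 32.9% of all tested. The median log2 difference (labeled minus total) was 0.30 for H1, -0.06 for H2A, -0.33 for H2B, 0.64 for H3 and -0.55 for H4. It was -0.15 over the 63 and -0.09 over all tested transcripts. All 9 H3 and all 5 H1 estimates were above 0, while all 19 H2B and all 12 H4 estimates and 14 of 18 of H2A were below. As genes of a type share reads, these are not independent values. The median standard error was 0.39 for the 63, and 0.65 for H4. For 0 of the 63 did the 6 labeled and 6 total libraries separate without overlap, against 10.2% of all tested. In bulk RNA, fewer cells making a transcript and less of it per cell cannot be told apart.

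**Figure D3:**
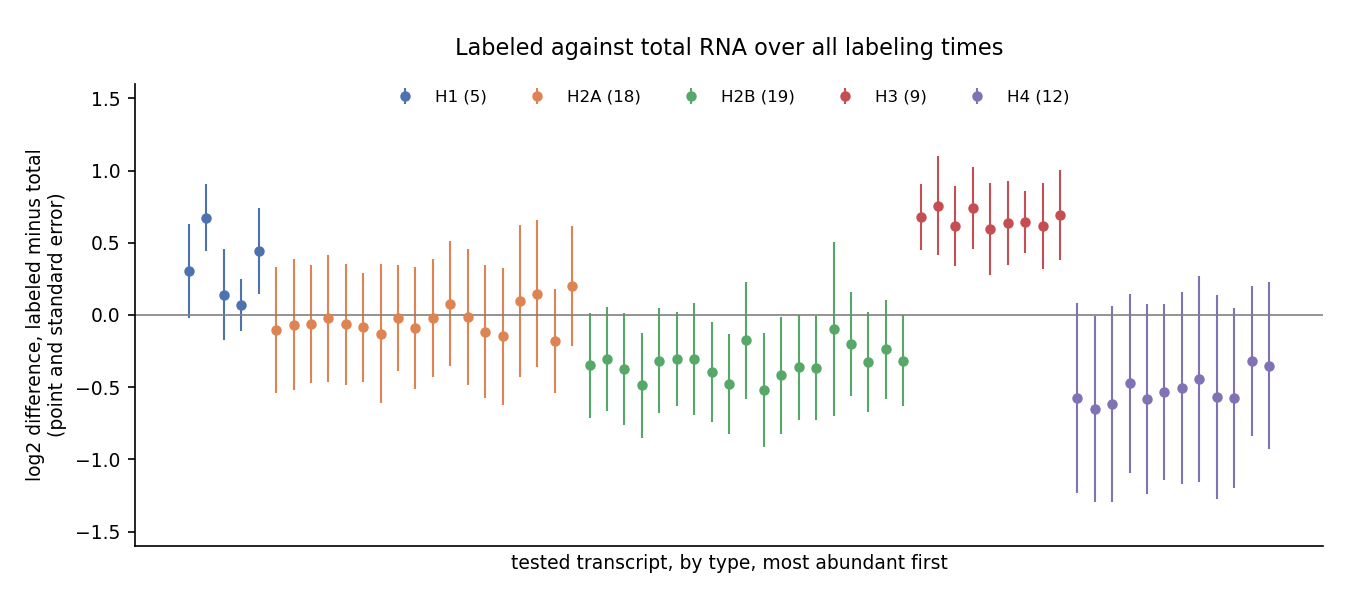
Log2 difference between labeled and total RNA over all labeling times for each tested histone transcript, with its standard error from limma, by type. Estimates of a type lie close together, from 0.60 to 0.76 for H3 and from -0.65 to -0.32 for H4, and the errors are widest for H4.

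H3, which together with H4 forms the core of the nucleosome, showed the highest estimates of the 5 types. Hist1h3g, the most abundant, had 251.7, 339 and 596 (lowest, median and highest) in total RNA and 422, 515 and 968 in labeled RNA. Its log2 difference was 0.68 (SE 0.23, adjusted p = 0.063). Hist1h3d had 188, 292 and 627 in total RNA and 371, 419 and 1142 in labeled RNA, a difference of 0.76 (SE 0.34, adjusted p = 0.15). Hist2h3b had 209.8, 317 and 681 in total RNA and 381, 440.2 and 1103 in labeled RNA, a difference of 0.62 (SE 0.28, adjusted p = 0.15). For all 3 the groups overlapped, since the highest total library, replicate 1 at 60 min, exceeded most labeled libraries. The smallest adjusted p of any histone transcript, 0.060, belonged to Hist1h3b, which was chosen after its values were seen. It had 106, 129 and 243 in total RNA and 154, 220.4 and 380.0 in labeled RNA, and its log2 difference was 0.64 (SE 0.21). At an unadjusted limma p under 0.05, 7 of 9 H3 transcripts were higher in labeled RNA, against 11.1% of all tested transcripts. As H3 transcripts share reads and move together between libraries, these 7 are not separate results, and the count is no test of the type.

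H1 binds the DNA between nucleosomes, and its genes have sequences distinct enough to be told apart by reads. Hist1h1b had 98.2, 160.3 and 228 in total RNA and 159, 268 and 355 in labeled RNA. The log2 difference was 0.67 (SE 0.23, adjusted p = 0.068). In 4 labeled libraries it exceeded every total library, and the exceptions were replicate 1 at 30 and at 60 min. Hist1h1e, the most abundant H1 gene, had 102, 208 and 322 in total RNA and 119, 242 and 434 in labeled RNA, a difference of 0.30 (SE 0.32, adjusted p = 0.55). Hist1h1c had a difference of 0.44 (SE 0.30) and medians of 88.3 in total and 104 in labeled RNA. Hist1h1d, whose transcript runs 3050 bases past its hairpin, had a difference of 0.14 (SE 0.32) and medians of 164 and 173. Hist1h1a had the smallest spread of the H1 genes in total RNA, from 107 to 147 with a median of 121, and spanned 98.6 to 213 in labeled RNA with a median of 124. Its log2 difference was 0.07 (SE 0.18, adjusted p = 0.82).

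H2A and H2B form the dimers that flank the H3 and H4 core. Hist1h2af had 340.4, 770.0 and 1786 in total RNA and 342, 724 and 1819 in labeled RNA, so that the ranges nearly coincided. The log2 difference was -0.10 (SE 0.44, adjusted p = 0.89). Hist1h2ai and Hist1h2ah had differences of -0.07 (SE 0.45) and -0.06 (SE 0.41). Hist1h2bl had 1738, 3188 and 5479 in total RNA and 1095, 2323 and 4873 in labeled RNA, a difference of -0.35 (SE 0.36, adjusted p = 0.54). Hist1h2bn and Hist1h2bf had differences of -0.30 (SE 0.36) and -0.38 (SE 0.39). Hist1h2ba, a testis H2B that was chosen after its values were seen, ranged from 114 to 1029 in total and from 112 to 1145 in labeled RNA, with a difference of -0.10 (SE 0.60). In labeled RNA at 15 min it had 472 in replicate 1 and 349 in replicate 2, while the sum of H2B was 18391 and 32539.

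H4 genes differed most between replicates. Hist1h4k had 366, 835 and 2636 in total RNA and 172, 637 and 2663 in labeled RNA, and its log2 difference was -0.57 (SE 0.66, adjusted p = 0.58). Its labeled extremes were replicate 1 (172) and replicate 2 (2663) of the same time, 60 min. Hist1h4d, whose coding sequence shares no 100-base window with another gene, had 316, 744 and 2330 in total RNA and 144, 522 and 2013 in labeled RNA. The difference was -0.65 (SE 0.64, adjusted p = 0.51). Hist1h4n, whose coding sequence has no 100-base window of its own, had -0.61 (SE 0.68). Over its whole transcript 19.3% of such windows were its own. The part of shared reads in the spread of H4 was not tested.

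Within a library, the types can be set against each other, which sets aside variation that they share to the same degree. The spread within replicate pairs was unequal, at 0.66 for H1, 0.83 for H2B and 1.50 for H4, so part of the variation stays in the ratios. These ratios were chosen after the values were seen and are given without a test. The summed abundance of H3 over that of H2B was 0.0673 to 0.0940 in total RNA (mean 0.0777 ± 0.0094, SD, n = 6). In labeled RNA it was 0.242 and 0.0833 at 15 min, 0.122 and 0.131 at 30 min, and 0.308 and 0.154 at 60 min, in replicates 1 and 2. In 5 of 6 labeled libraries it thus exceeded every total library, the exception being replicate 2 at 15 min. The ratio of H1 to H2B was 0.023 to 0.0323 in total RNA and 0.0343 to 0.0622 in labeled RNA, without overlap. It was highest in each fraction where the sum of H2B was lowest, at 13822 in total and 8984 in labeled RNA. The part of the H2B level in this ratio was not tested. The ratio of H2A to H2B overlapped, with 0.256 to 0.404 in total and 0.242 to 0.557 in labeled RNA, and so did that of H4 to H2B, with 0.173 to 0.457 and 0.102 to 0.475. The labeled libraries with the lowest H1 ratios, replicate 2 at 15 and at 60 min, were those with the lowest intron shares, and the part of this in the ratios was not tested. Median uridine counts were 158.5 for H1 and 136 for H3, and 82, 114 and 78.5 for H2A, H2B and H4. The part of uridine number in the difference between types was not tested either.

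**Figure D4:**
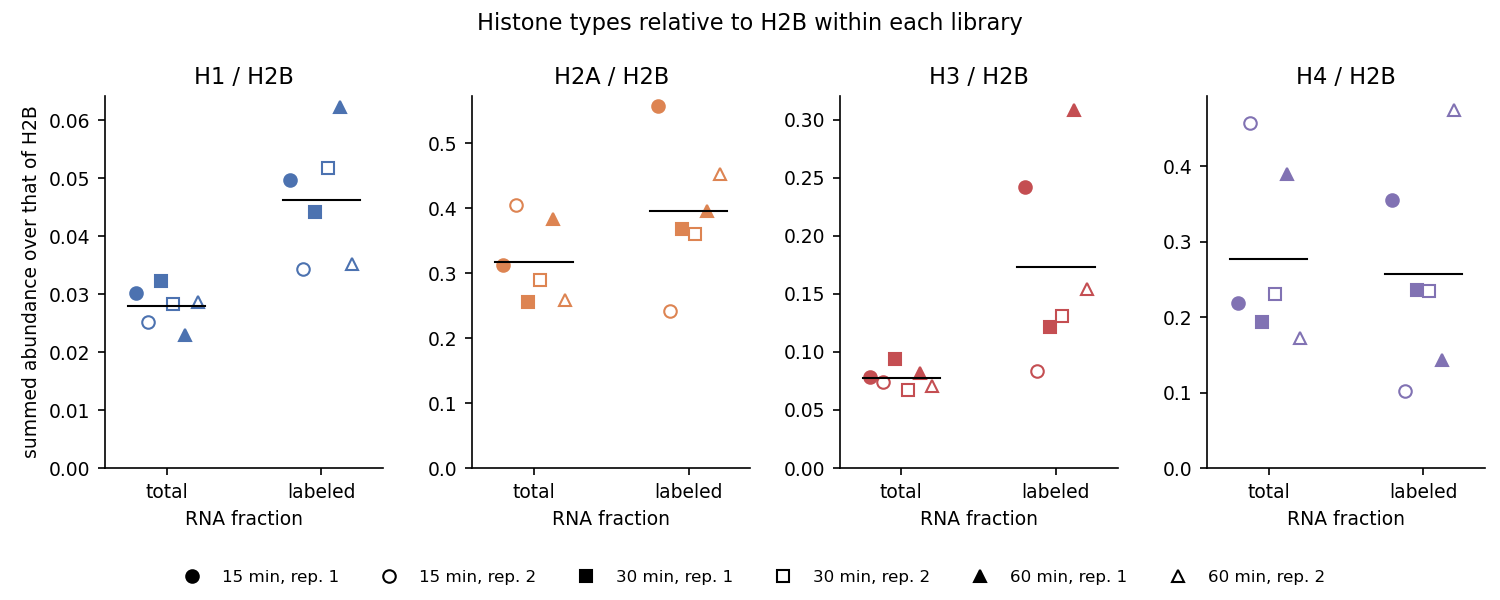
Summed abundance of H1, H2A, H3 and H4 over that of H2B in each of the 6 total and 6 labeled libraries, with the mean as a line, the labeling time as the symbol and replicate 1 filled. H1 ratios do not overlap between the fractions, H3 ratios overlap through 1 labeled library, and H2A and H4 ratios overlap widely.

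Each labeling time was also compared on its own, and times were compared with each other, to ask whether the differences depended on labeling time. With limma on the 6 group means, 0 histone transcripts passed at 15, 30 or 60 min, and 0% of all tested transcripts did. At an unadjusted p under 0.05 there were 5038, 5215 and 5339 of all tested, and 0, 1 and 0 histone transcripts. The median H3 difference was 0.53 at 15 min, 0.59 at 30 min and 0.89 at 60 min, and was above 0 for all 9 transcripts at each time. For H4 it was -1.10, 0.08 and -0.61, with a median standard error of 1.21 at 1 labeling time. H2A had -0.32, 0.36 and -0.17, H2B had -0.39, -0.06 and -0.59, and H1 had 0.11, 0.65 and 0.15. For the 63 the median was -0.29 at 60 min, and it was 1.05 without labeled replicate 1 and -1.53 without labeled replicate 2 of that time. The difference between labeled and total RNA did not pass the test between 60 and 15 min for any histone transcript, nor for any other, with 402 of all tested and 0 histone transcripts at an unadjusted p under 0.05. Labeled RNA at 60 against 15 min gave 0 calls and 494 transcripts at an unadjusted p under 0.05, and total RNA 0 and 296, with 0 histone transcripts in each. The histone medians there were -0.14 and -0.23, against -0.11 and -0.02 for all tested.

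Some H2B transcripts are annotated with an intron, unlike the textbook form, and 8 of them had intron values, which are read as unspliced RNA. All 8 had a higher mean in labeled than in total RNA. Abundance of the Hist1h2br intron was 11.5, 13.6 and 19.2 (lowest, median and highest) in total RNA and 23.9, 35.0 and 70.8 in labeled RNA. For it and for 1 of 2 Hist1h2bq introns all labeled libraries exceeded all total libraries, as did 15.3% of 18384 introns with a mean of at least 20. The 3 introns of Hist1h2bq and Hist1h2br had nearly equal values in each library and may share reads. The intron of Hist2h2bb, whose exons had a mean of 9.69, had 21.7, 27.5 and 30.0 in total RNA and 25.3, 40.1 and 78.6 in labeled RNA. Its mean of 36.6 was above that of the exons, so its reading as unspliced H2B RNA is uncertain. For the 4 introns with a mean of at least 20, that of Hist2h2bb among them, the log2 ratio of the labeled to the total mean had a median of 1.22. It was 0.69 for all 18384, of which 94.3% were above 0. In labeled RNA at 60 min the Hist2h2bb intron had 67.6 and 27.1 in replicates 1 and 2, where the exons of H2B summed to 8984 and 40752.

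**Figure D5:**
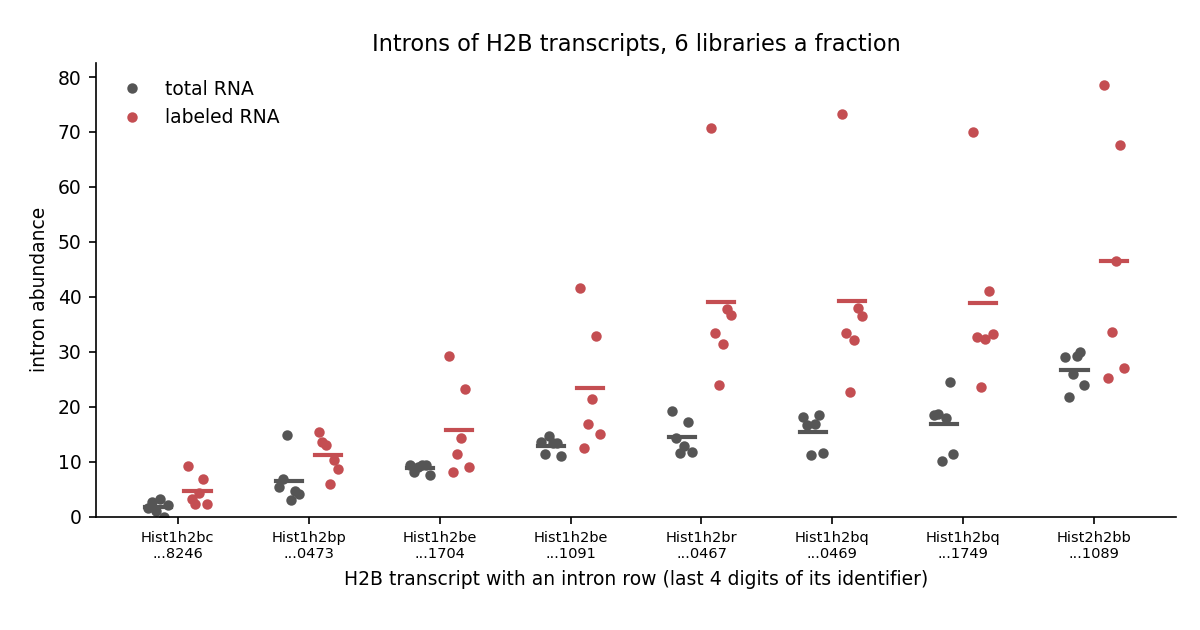
Abundance of the introns of 8 H2B transcripts in the 6 total (gray) and 6 labeled (red) libraries, with means as lines. Labeled means are above total means for all 8, and groups separate fully for Hist1h2br and 1 of the Hist1h2bq introns.

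The genes that make, process and remove histone mRNAs were read from the same fit, each by its most abundant transcript. Over all 45537 tested transcripts, 5.28% passed the test as higher and 12.05% as lower, and the counts below are to be read against these shares. Of 7 genes of histone gene transcription, 0 passed the test in labeled against total RNA. Npat, the activator that gathers at histone loci, had 135, 219.9 and 242 in total RNA and 139.6, 185 and 258 in labeled RNA, a difference of -0.10 (SE 0.18, adjusted p = 0.74). Casp8ap2 (FLASH), which joins transcription and 3′ end processing there, had -0.09 (SE 0.16, adjusted p = 0.71).

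Of 11 tested genes of 3′ end processing, 4 were lower in labeled RNA and 0 higher. Slbp, which binds the hairpin, was not among them, with 469, 526 and 648 in total RNA, 386, 524 and 622 in labeled RNA and a difference of -0.09 (SE 0.13, adjusted p = 0.68). Srrt (Ars2), which links the capped 5′ end to processing, had 208, 220.2 and 251 in total RNA and 95.3, 162 and 189 in labeled RNA, without overlap. It was lower in labeled RNA by a log2 difference of -0.58 (SE 0.14, adjusted p = 0.015). Sympk, the scaffold of the cleavage complex, had -0.55 (SE 0.16, adjusted p = 0.034), and Cpsf2, a subunit of it, had -0.44 (SE 0.10, adjusted p = 0.016).

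Of 10 genes of histone mRNA decay, 1 was higher and 4 were lower. Dcp2, the enzyme that removes the cap, had 256, 287 and 333 in total RNA and 105, 168 and 208 in labeled RNA, and its difference was -0.85 (SE 0.16, adjusted p = 0.0052). Lsm1, of the ring that binds oligouridylated ends, was higher by 0.60 (SE 0.17, adjusted p = 0.032), and the checkpoint kinase Atr was lower, at -0.52 (SE 0.16, adjusted p = 0.043). With the replicate number as a block, 1 gene of processing (Srrt) and 1 of decay (Dcp2) still passed, and the limma adjusted p was 0.096 for Sympk, 0.061 for Cpsf2, 0.061 for Lsm1 and 0.094 for Atr.

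Replacement histones are made outside S phase too and their mRNAs carry poly(A) tails. Of 9 tested genes, 2 were higher and 1 lower in labeled RNA. H2afj, an H2A variant, had 39.0, 42.2 and 62.6 in total RNA and 57.4, 92.8 and 146 in labeled RNA, a difference of 0.95 (SE 0.22, adjusted p = 0.014). H3f3a and H3f3b encode the same H3.3 protein, and their most abundant transcripts moved in opposite directions. H3f3a had 1724, 1962 and 2093 in total RNA and 1342, 1427 and 1544 in labeled RNA, without overlap, a difference of -0.42 (SE 0.09, adjusted p = 0.0089). H3f3b had 1087, 1402 and 1545 in total RNA and 1560.3, 1871 and 2038 in labeled RNA, also without overlap, a difference of 0.44 (SE 0.12, adjusted p = 0.025). Summed over its 4 transcripts, H3f3b overlapped, with 3022 to 4163 in total and 3995 to 5680 in labeled RNA. The 7 transcripts of H3f3a summed to 4658 to 5477 and 3232 to 4225, without overlap. The standard errors of these H3.3 transcripts compare with a median of 0.29 for the H3 transcripts of the clusters. With the replicate number as a block, H2afj and H3f3a still passed and H3f3b had an adjusted p of 0.085.

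Of 21 histone chaperones and import factors, 4 were lower in labeled RNA and 0 higher. Ipo4, an importin that carries H3 and H4, had -1.01 (SE 0.20, adjusted p = 0.0072). Its 13 transcripts summed to 724 to 1277 in total and 478 to 857 in labeled RNA, which overlapped. Rbbp4, a histone-binding subunit of the assembly factor CAF-1, had -0.81 (SE 0.21, adjusted p = 0.024). Its 4 transcripts summed to 733 to 1151 in total and 435 to 756 in labeled RNA, which also overlapped. Supt16h, of the complex FACT, had 1347, 1577 and 1730 in total RNA and 821.5, 1026 and 1162 in labeled RNA, without overlap, and a difference of -0.66 (SE 0.11, adjusted p = 0.0032). With the replicate number as a block, Ipo4 and Supt16h still passed and Rbbp4 had an adjusted p of 0.068. The median difference was -0.19 for the chaperone list, -0.44 for decay, -0.10 for 3′ end processing, 0.0045 for transcription and 0.18 for replacement histones, against -0.09 for all tested transcripts.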

How the data were processed

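The values are from 12 RNA-seq libraries of mESCs. The authors removed rRNA reads, mapped the rest (single-end, 100 nucleotides) to exons and introns with STAR v2.5.0 and used RSEM for abundances, with build mm10 per the labels. Each deposited value is a signal per transcript, for exons and introns apart, near 20-fold TPM. Nothing at or below 1 is listed, and unlisted values were taken as 0. The depth of each library is unknown, as the study's methods give only an average, and no counting error was computed.

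Histone transcripts were matched by identifier to GENCODE M1, which held 69.1% of 121429 exon rows. M1 is annotated on another build, so positions and promoters came from RefSeq tables of GRCm38.p6. limma 3.58.1 (R 4.3.3) was fitted with a mean-variance trend to log2(abundance + 1) of 45537 exon transcripts with a mean of at least 20, with labeling time as a covariate, or to the 6 group means. Log2 differences on this scale are understated for low abundances. Tested on simulated data for all times, it recovered 85 of 200 changed transcripts at a log2 change of 1 and 170 of 200 at 2. At 60 min alone it recovered 0 and 88. The changed transcripts were drawn from all tested ones and given independent noise. Histone transcripts moved together and had a median spread within replicate pairs of 0.89, against 0.36 for all tested, so these rates do not apply to them. Python 3.11.15 with numpy 2.4.6, pandas 2.3.3 and matplotlib 3.10.9 was used otherwise.

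The histone genes, the gene lists, the naming rule and the tests were chosen with earlier results of these data known. Named histone genes are the 3 most abundant of each type and all H1 genes tested. Named list genes are Slbp, Npat, Casp8ap2 and up to 3 called genes a list with the largest differences. The labels number the libraries by biological replicate and describe the replicates as 2 cultures divided from 1, and libraries were paired by this number. Within a number, the labeled and total deviations from group means correlated across 45537 transcripts at -0.09, 0.07 and -0.30 at 15, 30 and 60 min, so the values themselves do not show the pairing. Alternatives changed the pseudocount, filter, normalization, pairing, unit and libraries.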

Additional observations from a re-analysis of the deposited data

Results flagged for a closer look

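Among 82 sets of 6 libraries of 1 fraction, each with the abundances of a named gene, a type sum or a ratio of types, 6 had 1 library far from the others by Dixon's test at the 95% level. Chance flags about 1 in 20 such sets, here 4.1. In labeled RNA, 5 of the 6 were histone values that were highest in replicate 2 at 60 min. They were 1103 for Hist2h3b, 2663 for Hist1h4k, 2013 for Hist1h4d, 2183 for Hist1h4n and 19337 for the sum of H4. As the H4 genes move together, these are not separate events. The sixth was Cpsf2, with 265 in labeled replicate 2 at 15 min.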

How the results depend on the processing

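No histone transcript was lower at an adjusted p under 0.05 in labeled RNA under any alternative run. The number higher was 0 and became 2 with a filter of 100 (Hist1h3g and Hist1h3b), 1 with quantile normalization (Hist1h3g) and 1 with exons scaled alone (Hist1h1b), where 4.83%, 7.50% and 5.82% of all transcripts tested were higher. Leaving out each library in turn gave 0 to 3. It was 3 without total replicate 1 at 60 min, 2 without labeled replicate 1 at 60 min and 1 without labeled replicate 2 at 15 min, all of them among Hist1h1b, Hist1h3g and Hist1h3b. Of all tested transcripts, 4.12%, 5.43% and 6.86% were higher in these 3 alternatives. Among the alternatives chosen after seeing the data, correction for GC content gave 5 (Hist1h1b and 4 H3 genes), with 10.9% of 20629 transcripts higher under it. The block with its numbers crossed at 60 min, chosen because deviations there were opposite, gave 6, with 6.68% of all tested higher. Leaving out both labeled libraries with an intron share under 8% gave 0, with 11.6% of all tested higher. With the replicate number as a block, pairing libraries by number, 0 histone transcripts passed. The all-times median of -0.15 cannot change under this block, as each number has 1 labeled and 1 total library at each time. The block left 1 processing gene of 4, 1 decay gene of 5, 2 chaperones of 4 and 2 replacement histones of 3, as H3f3b was lost. Of all tested, it left 1684 higher and 2786 lower in place of 2403 and 5485. It changed no call of the 63 histone transcripts. The median of the 63 over all times ranged from -0.45 to 0.15 over the alternatives, and at 60 min from -1.53 to 1.05 with 1 library left out. The medians of H1 and H3 stayed above 0 and those of H2B and H4 below 0 in all alternatives run for them, while that of H2A took both signs. Single libraries moved their size: without labeled replicate 1 at 60 min the median was -0.05 for H4 and -0.05 for H2B, and without labeled replicate 2 at 60 min it was 0.09 for H1 and -1.03 for H4. Without replicate 1 or without replicate 2 of every group, 0 and 7 of all tested transcripts passed, so these alternatives say nothing of single histone transcripts. Of the named list genes, Srrt, Cpsf2, Dcp2, H2afj, H3f3a, Ipo4 and Supt16h passed with any 1 library left out, while Sympk lost its call in 7 of these 12 alternatives, Lsm1 in 9, Atr in 10, H3f3b in 4 and Rbbp4 in 5, with adjusted p up to 0.104. Under quantile normalization H3f3a and Rbbp4 also missed the threshold. As the depth of each library is unknown, counting error of the low histone transcripts was not computed, and shared reads limit values of single core histone genes.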
